A study of Mus musculus with 6 samples.

Results

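The miRNAs described here are the arms of a pair of neighbouring hairpins, mir-193a and mir-365-2: mmu-miR-193a-5p, mmu-miR-193a-3p, mmu-miR-365-2-5p and mmu-miR-365-3p (mmu, for mouse, is left out below). They were chosen by name, with the counts of both genotypes already known, because both 5p arms were among the miRNAs much lower in san:san. Their difference between genotypes is therefore given as a description and not tested. All 4 names were found among the 707 in the count table. The libraries held small RNA of exosomes, vesicles released into the medium, from supernatants of bone marrow-derived macrophages of C57BL/6 mice. One group was wild type (WT, 3 libraries) and the other carried the genotype Roquin-1 san:san (3 libraries). Roquin-1 binds messenger RNAs and speeds their decay, and san is its sanroque allele. The sources used here give no age, sex, culture condition or stimulus. They do not state whether replicates were separate mice either, so p-values measure only the spread between these libraries, which may be technical.

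A miRNA hairpin is cut into a duplex of a 5p and a 3p arm, and usually 1 arm is kept as the guide that pairs with messenger RNAs through its seed, bases 2 to 8. For mir-193a and mir-365 the 3p arm is the one usually studied as the guide. miR-193a-3p is known for repressing KIT, a growth factor receptor of blood progenitors, and the second copy of the pair, mir-193b with mir-365-1, is known from brown fat cells. Hairpins that lie close together on 1 strand are often cut from 1 long transcript.

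In the RefSeq annotation of GRCm38.p6, mir-193a lies on chromosome 11 at chr11:79711969-79712034 and mir-365-2 at chr11:79726400-79726511, both on the plus strand and 14365 bases apart. Neither overlapped another gene in the GENCODE annotation of GRCm38. The nearest protein-coding gene upstream is Rab11fip4, which ends 13945 bases before mir-193a. The deposited counts were made on another build, mm9, so these positions describe the hairpins and not the reads. The hairpins are shown because the results turn on which arm was read, with the mature arms in capitals, 5p first:
mir-193a: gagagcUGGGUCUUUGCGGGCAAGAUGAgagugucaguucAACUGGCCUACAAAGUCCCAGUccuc
mir-365-2: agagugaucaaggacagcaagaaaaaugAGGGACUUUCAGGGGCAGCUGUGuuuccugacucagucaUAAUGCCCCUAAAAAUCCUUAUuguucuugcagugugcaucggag

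The 4 mature sequences, and those of the second copy for comparison, are given next with the seed in capitals. They come from RefSeq, which held a mature sequence for 573 of the 707 names.
miR-193a-5p: uGGGUCUUugcgggcaagauga
miR-193b-5p: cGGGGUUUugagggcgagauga
miR-193a-3p: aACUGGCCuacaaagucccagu
miR-193b-3p: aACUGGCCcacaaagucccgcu
miR-365-2-5p: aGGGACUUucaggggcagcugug
miR-365-1-5p: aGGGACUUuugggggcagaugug
miR-365-3p: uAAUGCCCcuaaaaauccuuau
miR-193a-3p and miR-193b-3p share the seed ACUGGCC and differ at 3 of 22 positions. miR-365-2-5p and miR-365-1-5p share the seed GGGACUU and differ at 3 of 23 positions, whereas miR-193a-5p and miR-193b-5p differ at 5 of 22, of which 2 are in the seed. The sequence of miR-365-3p is identical in both mir-365 hairpins, so its reads cannot be assigned to either. No other name in the table with a RefSeq sequence had the seed of a member.

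Library totals were 12447, 28884 and 21754 counts for WT and 185901, 160588 and 126098 for san:san, so depth moved with genotype and the effect of depth and genotype on low counts cannot be told apart by design. A single count was worth 27.8 to 69.5 CPM (TMM-scaled counts relative to a fixed library total, the unit of all levels below) in WT and 6.31 to 10.2 CPM in san:san. Macrophage and myeloid miRNAs were present in all libraries: the 8 names fixed for this check summed to 5.55% to 6.60% of each WT library and 10.8% to 12.2% of each san:san library, with 6 of 7 tested higher. Of all tested miRNAs 34.6% were higher. Scaled by total counts, miR-142a-3p, miR-342-3p and miR-21a-5p stayed higher. The calls of miR-223-3p (log2 0.30, edgeR adjusted p = 0.336), miR-142a-5p (0.39, 0.177) and miR-22-3p (-0.01, 0.974) were then lost. Names of red blood cells also moved with genotype, at 3.84% to 6.25% in WT and 15.6% to 17.9% in san:san, with 4 of 5 tested higher. Among these, miR-486a-5p and miR-486b-5p had identical counts in every library, so the same counts enter this share and the 4 more than once. The lymphocyte name miR-150-5p held 0.409% to 0.492% of a WT library and 1.38% to 1.92% of a san:san library and was higher. The 2 endothelial names, both higher, summed to 1.82% to 3.69% and 3.37% to 6.96%. The 4 fat names, which include miR-193b-3p and miR-365-3p, summed to 0.305% to 0.966% in WT and 0.117% to 0.129% in san:san, with the 1 tested, miR-378a-3p, lower. Of 5 stromal names 1 was higher and 1 lower, the liver name miR-122-5p did not pass, and no epithelial or muscle name had enough counts to be tested. Their part in the results below was not tested. Because levels are shares of a library, fewer vesicles or cells that hold a miRNA and less of it in each cannot be told apart.

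Both 5p arms were well represented in WT and much lower in san:san. miR-193a-5p had 27, 73 and 55 reads in the WT libraries and 14, 20 and 5 in the san:san libraries, although the latter were several times deeper. In levels this was 1878, 2026 and 1992 CPM in WT against 88.3, 150 and 51.2 CPM in san:san. The lowest WT library was thus far above the highest san:san library, and the WT libraries differed little among themselves (1965 ± 77.7 CPM, SD, n = 3). In san:san the mean was 96.7 ± 50.2 CPM (SD, n = 3), a wider relative spread on fewer reads.

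miR-365-2-5p was counted 32, 80 and 67 times in WT and 11, 5 and 10 times in san:san. In levels WT stood at 2225, 2220 and 2427 CPM and san:san at 69.4, 37.6 and 102 CPM, again with no overlap (2291 ± 118 against 69.8 ± 32.4 CPM, SD, n = 3 each). Ranked by mean level among the 707 names, miR-365-2-5p was number 56 in WT and 253 in san:san, and miR-193a-5p number 62 and 233. In WT, miR-365-2-5p was the higher of the pair in each library. In san:san it was the higher arm in replicate 3 and the lower arm in replicates 1 and 2.

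**Figure D1:**
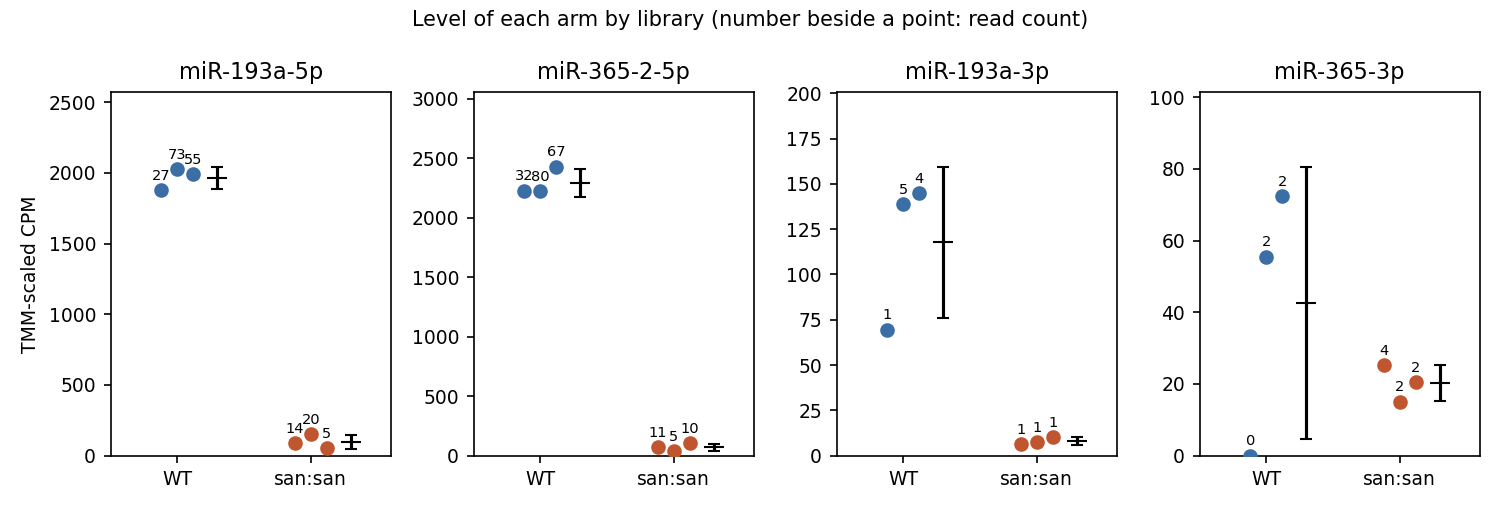
TMM-scaled CPM (vertical axes, each from 0 with its own range) of the 4 arms in the 3 WT (blue) and 3 san:san (orange) libraries, with the mean and SD as black bars and the read count beside each point. Both 5p arms lie at or above 1878 CPM in WT and at or below 150 CPM in san:san, while the 3p arms rest on 0 to 5 reads a library.

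The whole table was fitted with edgeR's quasi-likelihood test on 254 miRNAs that passed the count filter. The log2 fold change of miR-365-2-5p, san:san minus WT, was -5.06 ± 0.30 (SE, derived from the F statistic of the test), or 33.3-fold lower. For miR-193a-5p it was -4.29 ± 0.30, or 19.5-fold lower. Among the 254 tested miRNAs these were the 16th and 23rd lowest values, against a median of 0.30 and a lower quartile of -1.48. Of the 4 members 2 passed the filter, both through their WT counts alone, so their place among the 254 depended on WT. Both were among the miRNAs called lower at an adjusted p under 0.05. Of all tested miRNAs 64.2% were called, 29.5% lower and 34.6% higher (75 and 88 miRNAs, or 101 and 49 scaled by total counts and 82 and 64 with DESeq2). Both also had every san:san library below every WT library, as did 31.1% of tested miRNAs. Nothing is read from these counts, since this contrast chose the members.

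**Figure D2:**
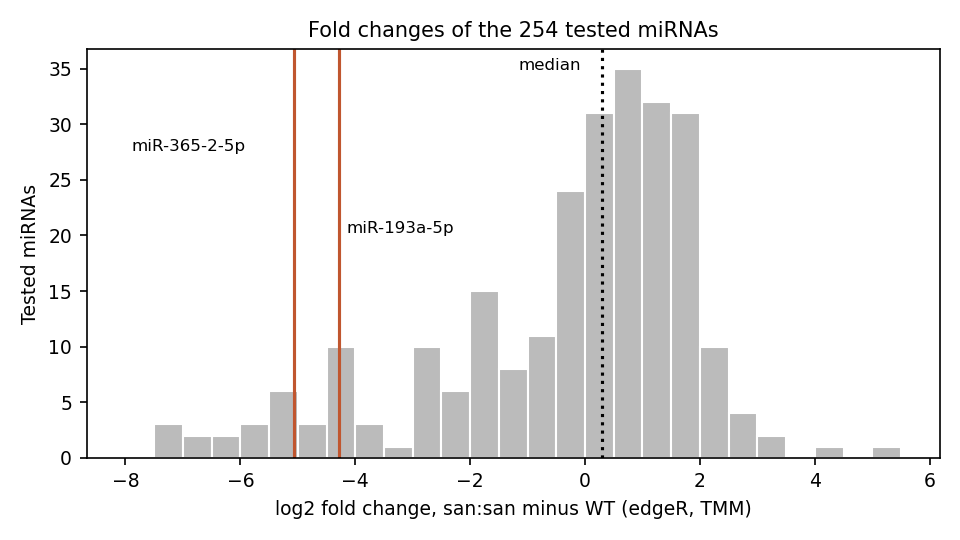
Number of tested miRNAs (vertical axis) by log2 fold change, san:san minus WT (horizontal axis, bins of 0.5), with lines at the members that passed the filter and at the median. miR-365-2-5p (-5.06) and miR-193a-5p (-4.29) lie in the lower tail, far from the median of 0.30.

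The read counts behind the san:san values were small. In libraries thinned at random to the smallest total of 12447 counts, a median of 2.5 reads of miR-193a-5p and 2 of miR-365-2-5p were left over the 3 san:san libraries, against 90.5 and 104 over WT. From the counts summed over each genotype and scaled by TMM library totals, miR-193a-5p was 19.8-fold lower in san:san with an exact 95% counting interval of 13.9 to 28.9. The same ratio for miR-365-2-5p was 34.3-fold, with an interval of 22.7 to 54.0. These intervals cover counting error only and overlap each other.

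Reads of the 3p arms were scarce in every library, and neither arm passed the count filter. miR-193a-3p had 1, 5 and 4 reads in WT and 1 in each san:san library. This put WT at 69.5, 139 and 145 CPM and san:san at 6.31, 7.52 and 10.2 CPM, so the genotypes did not overlap, but each san:san value was that of 1 read. The ratio of summed scaled counts, WT over san:san, was 16.6 with a counting interval of 4.28 to 94.0, close in size to the 19.8 of its 5p partner.

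miR-365-3p had 0, 2 and 2 reads in WT and 4, 2 and 2 in san:san. The levels were 0, 55.5 and 72.4 CPM for WT and 25.2, 15.0 and 20.5 CPM for san:san, and the groups overlapped through WT replicate 1. In that library a count of 0 allows up to 209 CPM, taking 3 counts as the limit, which is above every measured value of this arm. The ratio of summed scaled counts, WT over san:san, was 2.49 with a counting interval of 0.550 to 9.31, which includes 1. A fall of miR-365-3p was not detectable at this depth, and its interval lies below that of miR-365-2-5p.

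In summed counts the arms of mir-193a stood in nearly the same proportion in both genotypes, though with a wide interval, while those of mir-365-2 did not. Of the reads of both mir-193a arms, 93.9% were 5p in WT (155 of 165, exact 95% binomial interval 89.1% to 97.1%) and 92.9% in san:san (39 of 42, 80.5% to 98.5%). The 5p to 3p ratio was 1.19 times as high in WT, with a conditional exact counting interval of 0.201 to 4.93. For mir-365-2 the 5p share was 97.8% in WT (179 of 183, 94.5% to 99.4%) and 76.5% in san:san (26 of 34, 58.8% to 89.3%). Its 5p to 3p ratio was 13.8 times as high in WT (44.8 against 3.25), with a counting interval of 3.34 to 65.6. The 5p share of mir-365-2 was 100%, 97.6% and 97.1% in the WT libraries and 73.3%, 71.4% and 83.3% in the san:san libraries, without overlap. Reads of miR-365-3p can also come from mir-365-1, so this share is not that of the mir-365-2 hairpin alone.

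**Figure D3:**
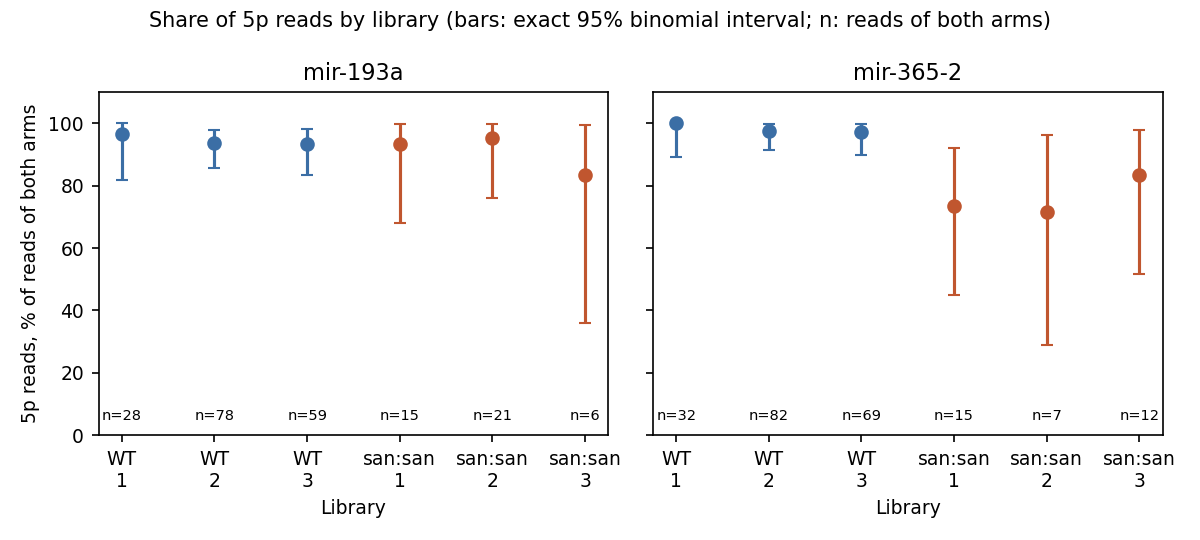
Share of 5p reads among reads of both arms (vertical axis, %) for mir-193a and mir-365-2 in each WT (blue) and san:san (orange) library, with exact 95% binomial intervals and the number of reads. mir-193a lies between 83.3% and 96.4%, with 6 reads behind the lowest value, and mir-365-2 at 97.1% or more in WT and 83.3% or less in san:san.

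Neither hairpin had the 20 counts over both arms in every library that the arm comparison required, in which 42.9% of 63 hairpins differed in their 5p to 3p ratio between genotypes (limma, adjusted p under 0.05). That number, 27, was 12 without san:san replicate 1 or 2, 14 without replicate 3 and 17 of 32 with at least 10 counts of each arm per genotype. With a minimum of 5 counts, set after seeing the data so that both could enter, the log2 difference of the 5p to 3p ratio was -4.73 ± 0.83 (SE) for mir-365-2 and -1.77 ± 0.53 for mir-193a. These were the 4th and 22nd lowest of 118 hairpins, whose median was 0.23. Both values differ from the ratios of summed counts above, which were 13.8 (log2 3.78) for mir-365-2 and near 1 for mir-193a, each higher in WT. The pseudocount, set in proportion to depth, was 1.41 to 2.08 reads in san:san and exceeded the single miR-193a-3p read there. In WT replicate 1, with 0 reads of miR-365-3p, the ratio rested on a pseudocount of 0.139.

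The hairpins with the nearest arm difference to mir-365-2 were those of miR-196a (5p minus 3p difference -4.68), miR-1249 (-4.66), miR-29b-1 (-4.12) and miR-326 (-5.36). The 3p arm of miR-196a, miR-196a-2-3p, was read in WT replicate 2 only, so its value also rests on the pseudocount. For miR-29b-1 the 5p arm had a log2 fold change of -4.22 and its partner miR-29b-3p of 0.01, and for miR-326 they were -4.30 and 1.86. Nearest to mir-193a were the hairpins of miR-142a (-1.78), miR-92a-1 (-1.72), miR-574 (-1.66) and miR-23b (-1.89). The arm miR-92a-1-5p was read in no san:san library, so that value rests on the pseudocount too. In miR-142a and miR-574 the difference came with a higher 3p arm (log2 2.65 and 1.72). In miR-23b it came with a lower 5p arm (log2 -2.31, against -0.20 for the 3p arm).

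The neighbours were read in a nearly constant proportion in WT. There were 1.19, 1.10 and 1.22 reads of miR-365-2-5p for each read of miR-193a-5p in the WT libraries, with counting intervals that overlap (0.688 to 2.06, 0.788 to 1.53 and 0.840 to 1.77). In san:san the proportion was 0.786 (0.323 to 1.86), 0.250 (0.0733 to 0.686) and 2.0 (0.623 to 7.46). These proportions enclose the WT range, with the lowest in replicate 2 (5 against 20 reads) and the highest in replicate 3 (10 against 5 reads). The interval of san:san replicate 2 lies below those of all 3 WT libraries. Summed over libraries the proportion was 1.15 in WT (0.926 to 1.44) and 0.667 in san:san (0.390 to 1.12). The summed intervals overlap, and a difference in proportion between genotypes was not tested.

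**Figure D4:**
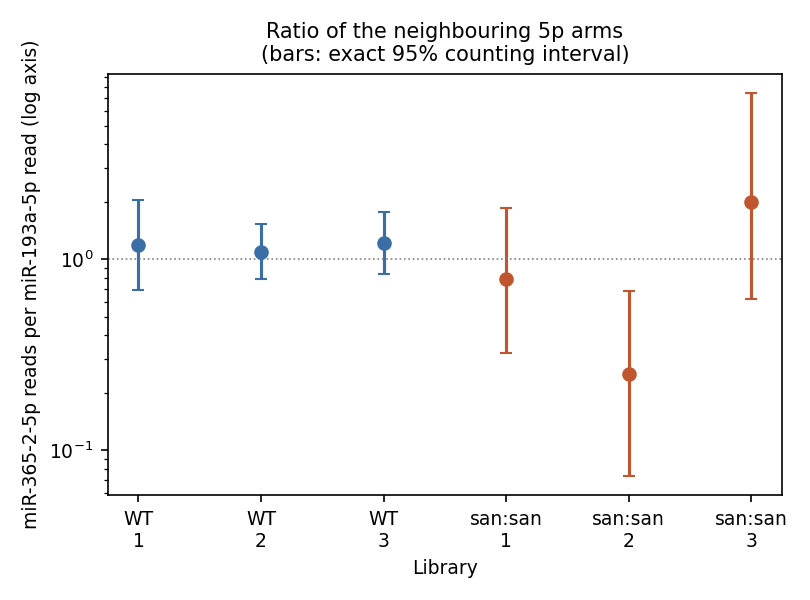
Reads of miR-365-2-5p per read of miR-193a-5p (vertical log axis) in each WT (blue) and san:san (orange) library, with exact 95% counting intervals and a dotted line at 1. The WT libraries sit between 1.10 and 1.22, and the san:san libraries scatter from 0.250 to 2.0 with wide intervals.

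The difference in log2 fold change between the neighbours was 0.77. Among 60 other adjacent pairs of hairpins within 50 kb on 1 strand, each represented by its most abundant tested arm, the median absolute difference was 0.58 (quartiles 0.32 and 1.14) and 38 pairs were closer than mir-193a and mir-365-2. Of these 60 pairs, 47 had the same sign in both hairpins. Both hairpins were more than 4-fold lower in 0 of the 60, unlike in the member pair, so none fell as far as the members. Pairs of 1 cluster share hairpins, so they are not independent.

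The second copy of the pair, on chromosome 16 at chr16:13449523-13449601 (mir-193b) and chr16:13453840-13453926 (mir-365-1), showed much lower levels in WT. miR-193b-5p had 1, 3 and 1 reads in WT and 15, 6 and 7 in san:san, or 69.5, 83.3 and 36.2 CPM against 94.6, 45.1 and 71.7 CPM, and the genotypes overlapped. Its level in san:san relative to WT was 1.12 with a counting interval of 0.428 to 3.72, and was below 1 with RLE factors, DESeq2, total counts or library totals without the 5 most abundant miRNAs. miR-193b-3p had 0, 1 and 0 reads in WT against 6, 6 and 0 in san:san, which gave a san:san to WT ratio of 2.41 (0.356 to 103). miR-365-1-5p had 1 count in san:san replicate 3 and 0 in the other libraries. None of the 3 passed the count filter. In a fit without that filter, over 707 names, edgeR's adjusted p was 0.768 for miR-193b-5p, 0.562 for miR-193b-3p and 0.690 for miR-365-1-5p, which does not show that they were equal. In WT the miR-193a-5p mean of 1965 CPM compares with 63.0 CPM for miR-193b-5p, and in san:san 96.7 with 70.5 CPM.

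The miRNAs whose profile over the 6 libraries was most like that of miR-193a-5p were miR-29b-1-5p (root mean square distance of centred log2 CPM 0.23), miR-130a-3p (0.30), miR-196a-5p (0.33) and miR-3473b (0.36). For miR-365-2-5p they were miR-3473e (0.34), miR-709 (0.38), miR-3473b (0.45) and miR-1946b (0.46). The distance between the neighbours was 0.70, so miR-365-2-5p was the 21st nearest to miR-193a-5p, and miR-193a-5p the 16th nearest to miR-365-2-5p. Nearest to miR-193a-3p, on its few reads, were miR-378a-3p (0.24), miR-669o-3p and miR-669a-3p (0.27 each) and miR-125b-5p (0.28). Its 5p partner miR-193a-5p was the 90th nearest (1.12). Nearest to miR-365-3p, also on few reads, were miR-378a-5p (0.26), miR-331-5p (0.35), miR-148a-3p (0.36) and miR-214-3p (0.43). A prior count of 2 was added before the log2, which narrows the differences of both 3p arms, so these likenesses depend on it. All profiles come from the same 6 libraries, in which the difference between genotypes is the main part of each 5p profile.

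Both 5p arms are rich in G, and both hold a run of 3 or more G from base 2 and a second from base 12, as the sequences above show. G makes up 40.9% of miR-193a-5p and 43.5% of miR-365-2-5p, against 18.2% of miR-193a-3p and 4.55% of miR-365-3p and a median of 23.8% over the 208 tested miRNAs with a RefSeq sequence. The motif GGG was searched on the mature strand and was present in 54 of these 208 (26.0%). Of the 52 other than the members, 26 were lower, 11 higher and the median log2 fold change was -0.84. Of the 154 without GGG, 26 were lower, 65 higher and the median was 0.68. Scaled by total counts, these numbers were 30 lower and 5 higher with GGG (median -1.42) and 44 lower and 34 higher without it (0.09). Over the 208 miRNAs the G percentage and the log2 fold change had a Pearson r of -0.53 and a Spearman rho of -0.48. This is a description across miRNAs of the same libraries, in which depth and genotype moved together. A name could also enter the 208 through its WT counts alone, as both members did.

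**Figure D5:**
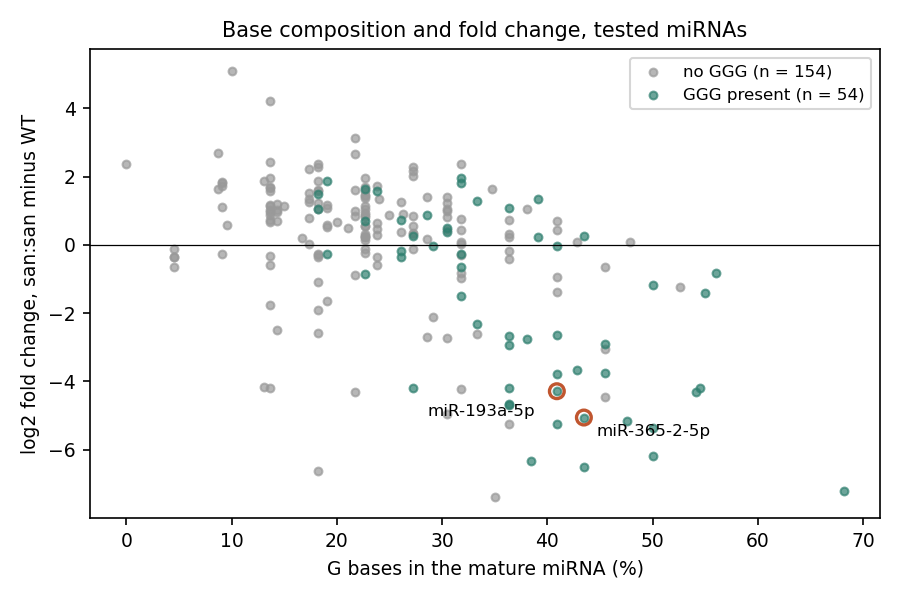
Log2 fold change, san:san minus WT (vertical axis), against the percentage of G in the mature miRNA (horizontal axis) for 208 tested miRNAs, coloured by the presence of GGG, with the 2 tested members circled. miR-193a-5p (40.9% G) and miR-365-2-5p (43.5% G) lie at the G-rich, lower end of a scattered relation with r of -0.53.

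A narrower group, with GGG inside the first 5 bases as in both members, was formed after the values were seen and is not tested. Every lower name in it except miR-23a-5p passed the count filter through WT alone. These had 1 (miR-149-3p) to 32 (miR-296-3p) reads in all in san:san. Examples are miR-125b-1-3p (28 reads in WT, 3 in san:san) and miR-326-5p (18 and 4). Their direction was thus largely fixed by the filter, and nothing is read from the split given below. The group includes near-copies in sequence, such as miR-3473b and miR-3473e. Over all 208 miRNAs, 26.0% were lower and 36.5% higher. This narrower group held 11 other tested miRNAs, of which 10 were lower and 1 higher, with a median log2 fold change of -4.66. A few of them are shown with the seed in capitals, namely the one with the lowest log2 fold change, the most abundant and the exception:
miR-149-3p: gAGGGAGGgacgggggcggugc
miR-23a-5p: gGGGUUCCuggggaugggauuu
miR-505-5p: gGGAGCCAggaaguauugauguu
miR-149-3p had 46 reads in all in WT and 1 in san:san. miR-23a-5p averaged 16758 ± 2131 CPM in WT, against 232 ± 67.8 CPM in san:san (SD, n = 3 each). miR-505-5p was higher in san:san (log2 1.34 ± 0.38, SE, edgeR adjusted p = 0.00730), a call lost with total counts (0.76, adjusted p = 0.0940). miR-193b-5p also starts with a run of G at base 2, but its level in san:san was 1.12 times that in WT, as given above.

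The 6 most abundant other miRNAs with GGG ranged widely in fold change. miR-423-5p (log2 0.27, edgeR adjusted p = 0.245), miR-23a-3p (-0.26, 0.305), miR-146a-5p (0.26, 0.363) and miR-221-3p (-0.34, 0.164) did not pass, whereas miR-130a-3p (-4.19, 3.22e-08) and miR-23a-5p (-6.20, 1.10e-09) were lower. With total counts in place of TMM, all 6 were below 0: miR-23a-3p (-0.83, adjusted p = 0.00377) and miR-221-3p (-0.93, 0.00171) were then also called lower by edgeR, and miR-423-5p (-0.32, 0.150) and miR-146a-5p (-0.30, 0.274) turned negative without passing. The motif GGAG, known as a binding site of the exosome-sorting protein hnRNPA2B1, was absent from all 4 members. It was present in 26 of the 208 miRNAs (12.5%), of which 20 were lower and 3 higher, with a median log2 fold change of -2.63. This set shares names with the GGG set, among them the near-copies miR-3473b and miR-3473e. Some passed the count filter through WT alone, such as miR-30c-1-3p (29 reads in WT, 5 in san:san) and miR-125b-1-3p (28 and 3). Of the 182 without it, 34 were lower and 73 higher, with a median of 0.57. Scaled by total counts, 21 were lower and 1 higher with GGAG, and 55 lower and 38 higher without it. Sorting into exosomes was not tested.

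Summed, the 4 members held 0.541% ± 0.0543 of a WT library and 0.0159% ± 0.00159 of a san:san library (SD, n = 3 each). By library this was 0.482%, 0.554% and 0.588% in WT and 0.0161%, 0.0174% and 0.0143% in san:san.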

How the data were processed

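Small RNA of 3 WT and 3 Roquin-1 san:san exosome samples was sequenced, with groups and replicate numbers taken from sample titles. The authors deposited raw counts per mature miRNA in 1 table. Libraries followed standard Illumina procedures, per the labels' protocols, and the submitters' processing notes name the build mm9. No aligner, trimming or miRNA release is given in the sources used here. The deposited per-sample tables were not used here. The table had 0 columns of other samples.

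Counts were fitted with edgeR 4.0.16 in R 4.3.3 (quasi-likelihood, robust, TMM, filterByExpr with a minimum count of 10, genotype only), with Benjamini-Hochberg adjustment over 254 miRNAs, which held 98.2% to 99.3% of each library. The SE of an edgeR log2 fold change was back-calculated as its absolute value over the square root of the F statistic. Arm ratios were fitted with limma 3.58.1, and DESeq2 1.42.0 was an alternative. Intervals are exact at 95% (scipy 1.17.1). The procedures were tested on simulated data. Members and lists were chosen with earlier results of these data known. Named miRNAs were the members, their second copies and same-seed names, the 4 nearest profiles of each member, the 4 hairpins nearest in arm difference, and the 6 most abundant with GGG. Further names were chosen after their values were seen. The 50 kb window was also set afterwards.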

Additional observations from a re-analysis of the deposited data

How the results depend on the processing

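Both tested members stayed lower in san:san under every alternative run. With total counts miR-193a-5p was at log2 -4.87 and miR-365-2-5p at -5.64, and in thinned libraries (median of 20 draws) miR-193a-5p was at -4.72 and miR-365-2-5p at -5.14. Leaving out 1 library gave -4.70 to -4.11 for miR-193a-5p and -5.39 to -4.73 for miR-365-2-5p. The median log2 fold change of tested miRNAs was 0.30 with TMM, -0.29 with total counts, 0.20 with TMMwsp, 0.02 with DESeq2 and 0.04 with RLE factors. Of 254 tested miRNAs, 88 were higher and 75 lower, against 49 higher and 101 lower of the same 254 with total counts. In thinned libraries 39 were higher and 44 lower, but only 132 miRNAs (median over draws) were tested there. The thinned numbers are therefore not losses from a set of the same size. The direction of miR-193b-5p (log2 0.17) depended on the scaling: it was -0.080 with RLE factors and with DESeq2, -0.42 with total counts, -0.088 without the 5 most abundant in the library totals, and between -0.20 (without san:san replicate 1) and 0.50 (without WT replicate 2) with 1 library left out, being -0.14 without WT replicate 3. Of the hairpins, 27 of 63 differed in arm ratio, 17 of 32 with at least 10 counts of each arm per genotype, 33 of 118 with at least 5 counts over both arms, and 12 to 30 with 1 library left out (12 without san:san replicate 1 or 2, 14 without san:san replicate 3). With the replicate block 15 hairpins differed. Same-numbered libraries had correlations of deviations of 0.10, -0.08 and 0.26, and differently numbered libraries had -0.21 to 0.15. With 3 libraries per genotype these values cannot show whether the numbers pair libraries, and the sample titles do not say. The cause of these changes was not tested.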
